A study of Mus musculus with 4 samples.

Results

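The broad ARID1A peaks of unstimulated 266-6 acinar cells were examined across 4 chromatin immunoprecipitation sequencing (ChIP-seq) libraries. The members were chosen by peak width: a peak of control replicate 2 had to span at least 500 bp, share at least 1 bp with a peak of control replicate 1, and lie on a numbered autosome other than chromosomes 5, 10, 11 and 15. This gave 441 members among the 7112 peaks of control replicate 2. On the same 15 chromosomes, 1450 narrow shared peaks, under 500 bp in control replicate 2, served for comparison. The members were therefore selected on width in 1 library, and that width and any other value of control replicate 2 are given as descriptions.

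The 266-6 line is a mouse pancreatic acinar cell line. All cells were grown in medium with 4.5 g/L glucose and 10% serum and then kept without serum for about 14 h. The EGF group (2 libraries) received epidermal growth factor at 40 ng/ml for 8 h, and the control group (2 libraries) received 0.1% bovine serum albumin. Whether the libraries of 1 group come from separate cultures is not given in the sources used here, so the spread between them may be technical. The line is a single tumour-derived line, and its acinar identity could not be checked from peak positions.

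ARID1A is a defining subunit of the canonical BAF complex, a SWI/SNF assembly that uses ATP to slide or evict nucleosomes and is found mainly at enhancers and promoters. It has no strict sequence preference of its own and is brought to chromatin by transcription factors and modified histones. In the pancreas, ARID1A is known for keeping acinar cells in their differentiated state, and signalling through the EGF receptor is known to push acinar cells towards a duct-like state. A broad peak is a long stretch over which ARID1A-bound fragments exceed the input DNA. Positions are in mm9 and counted from 1. No gene was assigned to a peak and no sequence is shown, because no mm9 annotation or genome was used here.

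The recovered ChIP depth of the 4 libraries ranged from 1.06 to 1.23 reads per 200 bp averaged over the genome. Input backgrounds were 0.771 (controls) and 0.506 (EGF) reads over the same length. The faintest listed peak reached a −log10 p of 4.25 to 4.43 for the controls but 7.07 to 8.00 for EGF. Input depth and the faintest call both differ between the groups, so their part in any difference between the lists and the part of EGF cannot be told apart.

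Broad peaks were 23.3% of the 1891 shared control peaks on these chromosomes. By the rule that chose them they hold more of the length in control replicate 2, 284 of 760 kb. Their width in control replicate 2 ran from 500 to 1466 bp with a median of 611 bp. Of the 441, 206 were under 600 bp, 182 were from 600 to under 800 bp, and 53 were 800 bp or wider. Only 14 members reached 1000 bp, 5 of them on chromosome 16.

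The widest member was chr16:91694599-91696064, which spanned 1466 bp in control replicate 2 and 1079 bp in control replicate 1. Next came chr12:93092222-93093567, with 1346 bp against 554 bp. The peak at chr2:146190970-146192161 spanned 1192 bp against 640 bp. Great width did not go with great height in all of these. At chr12:93092222-93093567 only 21 and 19 reads lay over the summit in control replicates 2 and 1, whereas chr16:91694599-91696064 had 39 and 37. The member at chr19:58191930-58193038, 1109 bp wide, lay over 2 separate peaks of control replicate 1, the higher-scoring of which was the narrower; the other spanned 384 bp. At chr1:135988743-135989848 a 1106 bp region met a peak of only 314 bp in the other control library, and at chr6:98536205-98537288 a region of 1084 bp met one of 558 bp. Each of these 6 regions was broad by control replicate 2, but only 4 of them reached 500 bp in control replicate 1.

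At the threshold, the members chr3:153885454-153885953, chr3:53361481-53361981 and chr9:75091600-75092101 spanned 500, 501 and 502 bp. In control replicate 1 they spanned 247, 516 and 367 bp. Just outside it, chr1:172730477-172730975, chr14:72109275-72109773 and chr7:125847872-125848370 each spanned 499 bp, and 393, 304 and 219 bp in control replicate 1. Widths ran on across the threshold in both libraries, with no gap at 500 bp.

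Control replicate 1 did not set the threshold, and its widths show how far breadth was shared between libraries. The median width there was 421 bp for members (95% interval 399 to 442 bp) and 298 bp for narrow peaks (291 to 306 bp). Of the members, 141 of 441 (32.0%, exact Clopper-Pearson interval 27.6% to 36.5%) reached 500 bp in control replicate 1, against 9.17% of narrow peaks (7.74% to 10.8%) and 14.5% of all shared peaks. The members were wider than narrow peaks by this median on each of the 15 chromosomes. Breadth was therefore partly shared, but 300 of the 441 members fell under 500 bp in the other control library and 103 fell under 300 bp.

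**Figure D1:**
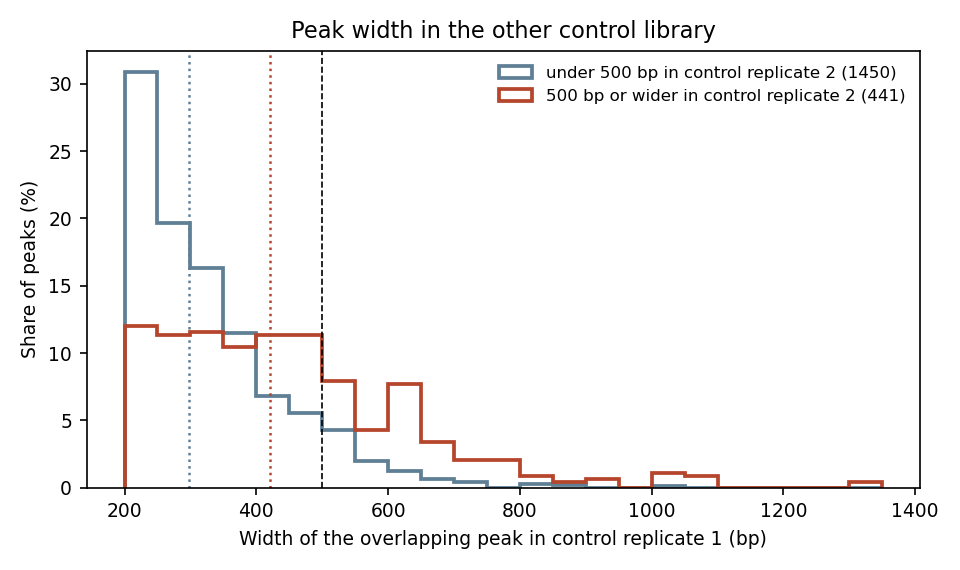
Width in control replicate 1 (x axis, bp, bins of 50 bp) of the peaks that overlap members and narrow peaks, as a share of each set (y axis, %). The dotted lines are the medians (421 bp for the 441 members and 298 bp for the 1450 narrow peaks), and the dashed line is 500 bp; the members' curve is shifted to the right and 32.0% of it lies at or beyond the dashed line.

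The share that was also broad in control replicate 1 rose with width in control replicate 2. It was 27.2% for members under 600 bp, 34.1% from 600 to under 800 bp and 43.4% at 800 bp or wider. Member by member, the widths of the control libraries were only loosely related (Spearman rho = 0.14 over 441 members, and 0.35 over all 1891 shared peaks). These are descriptions across regions of the same libraries. Width in control replicate 1 followed the score in that same library more closely (rho = 0.42 over the members), where the score stands for the −log10 q multiplied by 10.

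Most members corresponded to 1 peak of control replicate 1, but 23 (5.22%) lay over 2 of them, against 0.897% of narrow peaks. A wider region has more room to meet 2 peaks. The reverse also occurred: 2 peaks of control replicate 1 each spanned a pair of members. At chr16:80272449-80273335 and chr16:80273397-80274000, members only 0.061 kb apart in control replicate 2 lay under a single peak of 1322 bp in control replicate 1, the widest of any over a member. Their reads at the summit in control replicate 2 were 55 and 18, so a tall and a low peak were listed apart in control replicate 2 and as 1 region in control replicate 1. Peaks of control replicate 1 covered a median of 64.5% of a member's length and 77.5% of a narrow peak's. This measure also depends on the width that chose the members.

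Members were also taller than narrow peaks in the library that did not define them. The authors' deposited fold, the ratio of summit ChIP reads to local input with 1 added to each, had a median of 6.67 for members (95% interval 6.41 to 6.82) and 6.08 for narrow peaks (6.08 to 6.17) in control replicate 1. In control replicate 2, which chose the members, the medians were 7.64 and 6.36. As multiples of the genome-wide mean of control replicate 1, the summits of members had a median of 18.6 and those of narrow peaks 16. The fold median of members was the higher on 13 of 15 chromosomes, with a tie on chromosome 3 and a lower value on chromosome 17. These differences in median were small beside the spread within the members, whose middle 50% ran from a fold of 5.49 to 8.29.

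The strongest member by score in control replicate 1 was chr4:51487939-51488540, with summit reads 58.3 and 51.1 times the genome mean in control replicates 1 and 2. It was also wider in control replicate 1, at 1042 bp against 602 bp. The peak at chr6:134564483-134565553 had summits of 47.3 and 53.7 times the mean and nearly the same width in both libraries, 1072 and 1071 bp. The tall peak at chr16:80272449-80273335 had 43.9 and 48.5 times. The other strong members, chr14:110942373-110943093 with 32.9 and 24.7 times and chr6:40968486-40969247 with 31.2 and 37.9 times, differed more between the control libraries. The latter spanned 366 bp in control replicate 1 and 762 bp in control replicate 2, so a high summit did not ensure a broad call in both.

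The input background beside the peaks had the same median in members and narrow peaks but was more often high beside members. The median was 1.3 times the genome-wide background in both sets, in control replicate 1 as in control replicate 2. More members than narrow peaks lay at more than 2 times the background: 26.1% (22.0% to 30.4%) against 19.3% (17.3% to 21.4%) in control replicate 1, and 30.2% (25.9% to 34.7%) against 19.0% (17.0% to 21.1%) in control replicate 2. The control lists had the same input background, so these 2 comparisons may rest on 1 input and may not be independent. An input shared by both lists would also enter the folds and widths of both. The part of local input in the width of a peak was not tested. Among peaks at no more than 2 times the background in both control lists, the members' median width in control replicate 1 was 418 bp.

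The summit of control replicate 1 lay a median of 71 bp from that of control replicate 2 in members and 64 bp in narrow peaks, and within 100 bp in 62.1% and 67.9% of them. The 95% intervals of these medians, 63 to 84 bp and 61 to 70 bp, overlap, and a wide peak leaves more room for such a distance. The middle 50% of these distances ran from 28 to 151 bp in members. Within control replicate 2, the summit lay a median of 94 bp from the middle of a member and 32.5 bp from that of a narrow peak, in regions with median widths of 611 and 321 bp. This distance comes from the library that chose the members and grows with width.

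Members lay on all 15 chromosomes, in unequal shares. Chromosome 16 held the most, 61 of 184 shared peaks (33.2%, interval 26.4% to 40.5%), and chromosome 19 followed with 32 of 100 (32.0%, interval 23% to 42.1%). Chromosome 13 had the lowest share, 6 of 58 (10.3%, interval 3.89% to 21.2%). The interval of chromosome 16 lay above the share over all 15 chromosomes, 23.3%, and that of chromosome 13 below it. On the other 13 chromosomes the interval held that share. The intervals are not adjusted for 15 chromosomes and treat peaks of the same libraries as independent. They use the width that chose the members, and the share over all chromosomes includes each of them, so they are descriptions. Narrow peaks of chromosome 16 were also wider in control replicate 1, with a median of 325 bp, and the members there had a median of 481 bp. Members and narrow peaks there both had a median local input of 1.56, above the 1.3 over all chromosomes. Members of chromosomes 2 and 17 had like medians, 1.56 and 1.57, with broad shares of 20.6% and 19.6%, but narrow peaks there had 1.3. Members of chromosome 19 had 1.39. The part of local input in the high share of broad peaks on chromosome 16 was not tested.

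**Figure D2:**
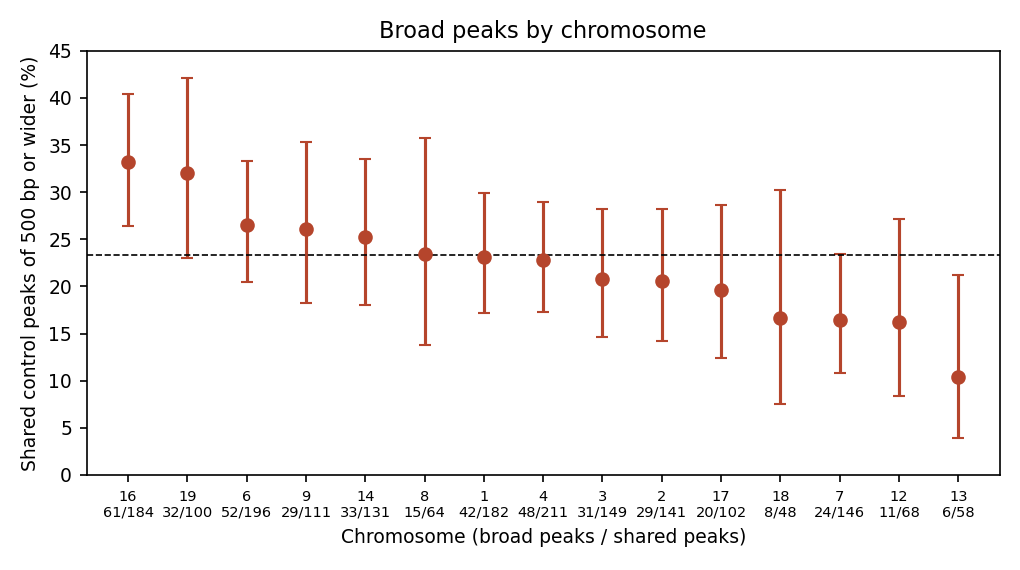
Share of shared control peaks that were 500 bp or wider in control replicate 2 (y axis, %) on each of the 15 chromosomes (x axis, with the numbers of broad and shared peaks), with exact 95% binomial intervals that cover counting error only. The dashed line is the share over all 15 chromosomes, 23.3%. Chromosome 16 lies above it and chromosome 13 below it with their whole intervals, which are not adjusted for 15 chromosomes.

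Broad peaks lay nearer to other ARID1A peaks than narrow ones did. The gap to the nearest other peak of control replicate 2 had a median of 18.2 kb for members (95% interval 13.4 to 23.6 kb) and 34.0 kb for narrow peaks (28.3 to 39.5 kb). In control replicate 1, leaving out the peaks that overlap the member itself, the medians were 41.3 kb (30.2 to 54.8 kb) and 76.1 kb (67.5 to 88.7 kb). Within a chromosome, the median gap was smaller for members on 13 of 15 chromosomes in each control list. The exceptions were chromosomes 7 and 17 in control replicate 2 and chromosomes 16 and 17 in control replicate 1. Neighbours within 10 kb were present for 41.5% of members (36.9% to 46.3%) and 30.9% of narrow peaks (28.5% to 33.3%) in control replicate 2.

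**Figure D3:**
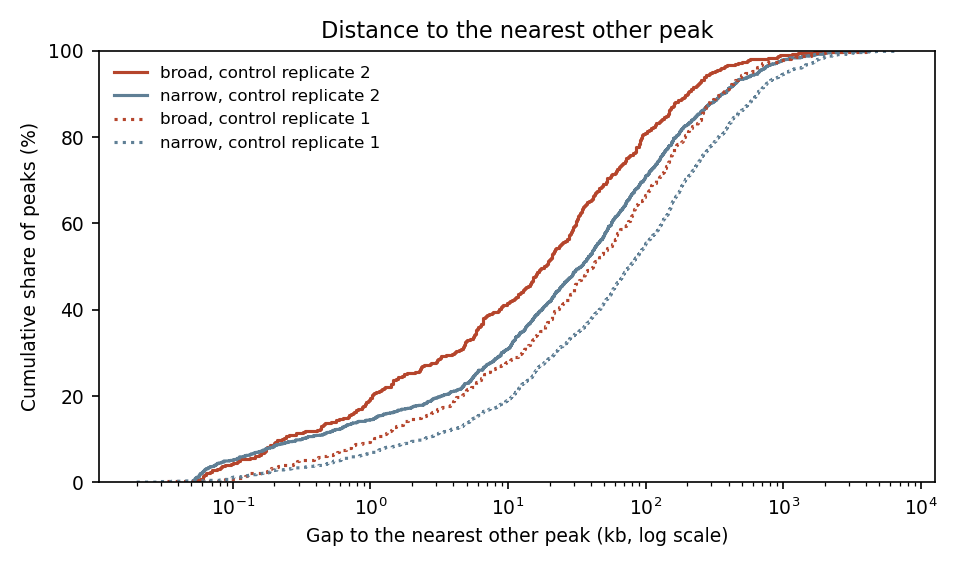
Cumulative share of peaks (y axis, %) by gap to the nearest other peak (x axis, kb, log scale) for members and narrow peaks, measured in each control list. In both lists the curve of the members lies to the left over most of its length, with medians of 18.2 and 34.0 kb in control replicate 2 and 41.3 and 76.1 kb in control replicate 1.

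Some members lay near each other. A second member lay within 10 kb of 37 members (8.39%), where 41.5% of members had any other peak of control replicate 2 that near. No like share is given for narrow peaks, so this is not shown to be particular to broad ones. At chr3:53361481-53361981 and chr3:53362894-53363466, 2 members were 0.912 kb apart, the first with 13.5 and 16.7 times the genome mean in control replicates 1 and 2 and the second with 27.9 and 42.3 times. The very wide chr12:93092222-93093567 was the opposite case, with no other peak of control replicate 2 within 2704 kb.

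EGF lists held no peak of this breadth. On the 15 chromosomes, control replicates 1 and 2 had 262 of 2701 and 556 of 4743 peaks at 500 bp or wider (9.70% and 11.7%), and EGF replicates 1 and 2 had 0 of 30 and 0 of 4. The mean went from 409 ± 208 to 0 ± 0 broad peaks per library (SD, n = 2 each). The 500 bp bound is the one that chose the members in control replicate 2, so this difference is given as a description. Control replicate 1, with its 262 broad peaks, did not set that bound. The exact two-sided permutation p was 0.333, the smallest that 2 libraries against 2 can give. The widest EGF peaks spanned 376 and 281 bp. By the exact interval, a count of 0 of 30 allows a share of up to 11.6%, and 0 of 4 a share of up to 60.2%, counting error only. The limit for EGF replicate 1 lies between the broad shares of control replicates 1 and 2, and the comparison of numbers rests on the small number of EGF peaks of any width.

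Broad control peaks were called with EGF more often than narrow ones. An EGF peak overlapped 18 of the 441 members (4.08%, interval 2.44% to 6.37%) and 12 of the 1450 narrow peaks (0.828%, interval 0.428% to 1.44%), where 1.59% of all shared peaks were called. The difference was 3.25 percentage points (95% interval 1.65 to 5.56, by Newcombe's method). Intervals treat regions of the same libraries as independent, which they are not, so they measure counting error and not the spread between libraries. Broad peaks were 18 of the 30 shared peaks called with EGF (60%, interval 40.6% to 77.3%), against 23.3% of all shared peaks. EGF replicate 1 called 17 members (3.85%) and 12 narrow peaks (0.828%), with 1.53% of all shared peaks. EGF replicate 2 called 3 members (0.680%) and 1 narrow peak (0.0690%), with 0.212% of all shared peaks, and 2 members were called in both. Most of the calls thus came from EGF replicate 1, and without it the difference was 0.611 percentage points (95% interval 0.0598 to 1.91).

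Broad peaks were also stronger, so shares were compared within 4 bands of the score in control replicate 1. Members had the higher share in 3 of them. The bands do not match the score in control replicate 2, whose median was 86 for members and 59 for narrow peaks. Members and narrow peaks of 1 band may therefore still differ in strength. In the highest band, with scores above 92, 11 of 108 members (10.2%, interval 5.20% to 17.5%) and 7 of 161 narrow peaks (4.35%, interval 1.77% to 8.75%) were called with EGF. With scores of 61 to 92 the counts were 4 of 108 (3.70%) and 3 of 294 (1.02%). In the next band down, 0 of 113 members (exact interval up to 3.21%) and 2 of 444 narrow peaks (0.450%) were called. At scores of 42 or less, 3 of 112 members (2.68%, interval 0.556% to 7.63%) and 0 of 551 narrow peaks (exact interval up to 0.667%) were called. The exact intervals of both sets overlapped in every band. Weighted by the members in each band, the difference was 2.65 percentage points. A wide peak also offers more room for an overlap. When an EGF summit had to lie within 100 bp of the control summit, 14 members (3.17%) and 12 narrow peaks (0.828%) counted as called.

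**Figure D4:**
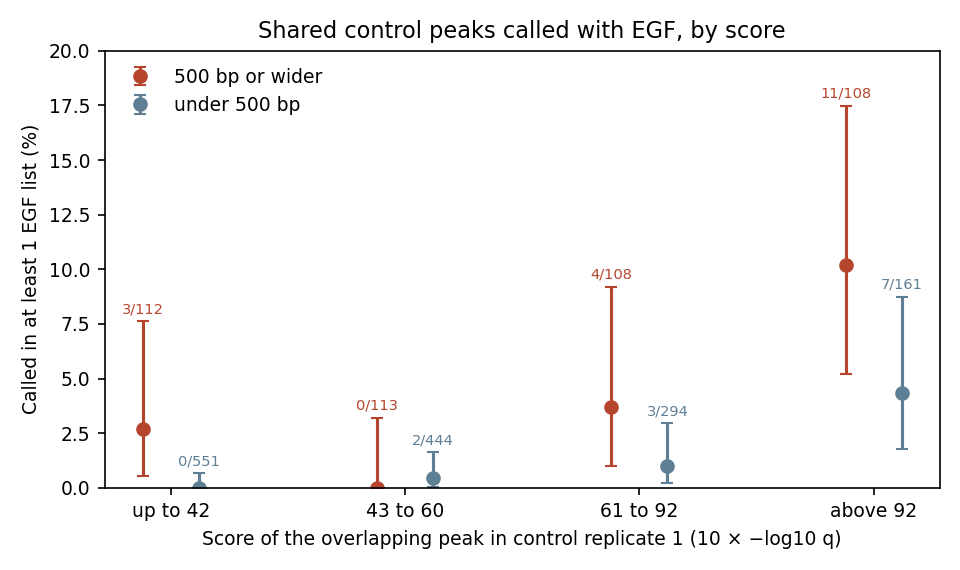
Share of shared control peaks called in at least 1 EGF list (y axis, %) in 4 bands of the score of the overlapping control replicate 1 peak (x axis, 10 times the −log10 q), for peaks of 500 bp or wider and under 500 bp, with exact 95% binomial intervals and counts. The highest band has the highest share in both sets, 10.2% and 4.35%, and in 3 of the 4 bands the broad peaks have the higher share, with overlapping intervals.

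The share called with EGF did not rise with width among the members. Members under 600 bp were called with EGF in 10 of 206 cases (4.85%), those from 600 to under 800 bp in 7 of 182 (3.85%), and those of 800 bp or wider in 1 of 53 (1.89%). Members that were also broad in control replicate 1 were called in 8 of 141 cases (5.67%, interval 2.48% to 10.9%) and the others in 10 of 300 (3.33%, interval 1.61% to 6.04%). These intervals overlap. The called members lay on 10 of the 15 chromosomes, with 4 of them on chromosome 16. Without that chromosome the share was 3.68% for members and 0.829% for narrow peaks.

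Control peaks were also set against the calling level of the EGF lists. The reads and local input of each control peak were rescaled to the depth and input background of EGF replicate 1 and compared with its weakest call, assuming that local input scales with the genome-wide background. By this measure 212 of the 441 members (48.1%) passed with the reads of both control libraries, as did 359 of 1450 narrow peaks (24.8%). EGF replicate 1 called 14 of those 212 members (6.60%, interval 3.66% to 10.8%) and 10 of those 359 narrow peaks (2.79%, interval 1.34% to 5.06%). It left 198 such members without a call, and 3 of the 17 members it called did not pass by this measure. At the settings of EGF replicate 2, 171 members (38.8%) passed with the reads of control replicate 1 and 280 (63.5%) with those of control replicate 2. The rescaling is an assumption, and it does not separate the calling of the EGF lists from EGF.

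Some of the tallest members had no call. By score in control replicate 2 these were chr16:80272449-80273335, described above, chr3:53362894-53363466 and chr1:52053429-52054098, with summits of 27.9 and 42.3 times and 26.2 and 41.4 times the genome mean in control replicates 1 and 2. The fourth, chr19:47978145-47978733, had 27.9 and 40.5 times. Control replicate 2 was the higher in all 4, but they were chosen by the score in that library. All 4 were among the 20 members with the highest mean of both control libraries, each at 33.7 times or more. Of those 20, another 4 were called with EGF.

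At most called members, the EGF peak was a narrow stretch within the broad control region. The 20 EGF peaks at the 18 members spanned 200 to 376 bp with a median of 222 bp. The members themselves spanned 504 to 849 bp in control replicate 2 and 218 to 1042 bp in control replicate 1. In 17 of 18 members the peak of control replicate 1 was wider than the EGF peaks, and in 16 of 18 the EGF peaks lay wholly inside the member, as they did in 10 of 12 narrow peaks called with EGF. No EGF peak reached 500 bp, so a member has room for all of it. EGF summits lay a median of 52 bp from the summit of control replicate 2, and 15 of 20 lay within 100 bp. The narrow peaks called with EGF behaved alike in width: their 13 EGF peaks had a median of 231 bp, and the peak of control replicate 1 was wider in 12 of 12. The part of input depth and of the faintest call of each list in these widths was not tested.

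Summit height at the called members moved in both directions. Over the genome-wide mean of each library, control means of the 18 members ran from 12.1 to 54.7 with a median of 28.3, and EGF means from 19.8 to 35.8 with a median of 23.4. The EGF value was a median of 0.908 times the control mean (range 0.606 to 1.72). It lay below both control libraries in 10 members, above both in 3 and between them in 5. Among all 30 shared peaks called with EGF, 50% lay below and 23.3% above. Divided by local input instead, the median ratio was 0.967 (range 0.157 to 2.73), with 9 members below (40% of all 30) and 6 above (43.3% of all 30). By both scalings at once, 6 members were lower and 2 higher. At the 2 higher ones the EGF summit lay 213 and 441 bp from that of control replicate 2. Their reads therefore do not measure the same position. The values over local input can rest on few input reads. The members were selected here by having enough EGF reads to be called, so these ratios are descriptions without a test.

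**Figure D5:**
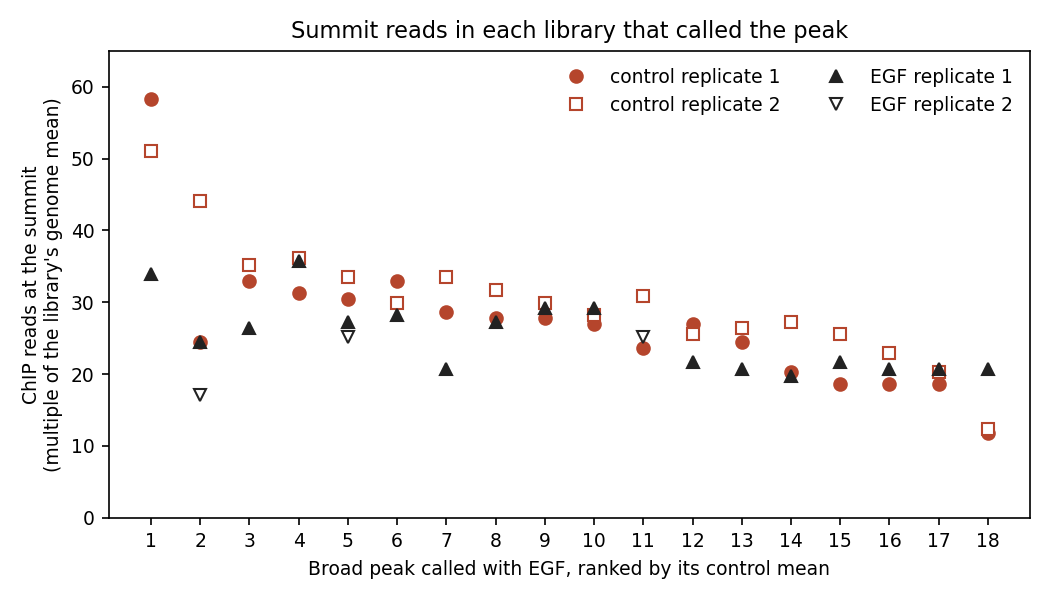
ChIP reads at the summit as a multiple of each library's genome mean (y axis) for the 18 members called with EGF, ranked by their control mean (x axis); circles and squares are control replicates 1 and 2, and triangles are EGF replicates 1 and 2 where they called the peak. The EGF values lie between 17.0 and 35.8, while the control values, whose mean sets the order by construction, run from 11.8 to 58.3.

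The 2 members called in all 4 libraries were both on chromosome 16. At chr16:85887826-85888382 the summit had 24.5 and 44.1 times the genome mean in control replicates 1 and 2, and 24.5 and 17.0 times in EGF replicates 1 and 2. Control replicate 1 and EGF replicate 1 were level there, the control libraries were far apart (34.3 ± 13.8, SD, n = 2), and local input was 5.19 and 3.11 times its background in the controls but 1.11 times in both EGF lists. Over local input the EGF value there was above both controls, at 1.99 times their mean. At chr16:66900658-66901437, named because it was called in all libraries and after its values were seen, the control summits had 30.4 and 33.5 times and the EGF summits 27.3 and 25.1 times. Both EGF libraries were lower there by the genome mean, but over local input the EGF value lay between the controls, at 1.05 times their mean. The peak spanned 828 and 780 bp in control replicates 1 and 2 but 301 and 227 bp in EGF replicates 1 and 2.

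The tallest called member by control mean was chr4:51487939-51488540. It had 58.3 and 51.1 times the genome mean in control replicates 1 and 2 and 33.9 times in EGF replicate 1, which called a peak of 215 bp, 18 bp from the summit of control replicate 2. EGF replicate 2 did not call it. Local input there was equal to the background in both control lists and 3.95 times it in EGF replicate 1. Over local input the EGF value was therefore 0.157 times the control mean. With an EGF background of 0.506 reads per 200 bp, that multiple can rest on few input reads.

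Both scalings also put 5 further members below their controls. At chr1:64855550-64856163 the values were 28.7 and 33.5 times the genome mean in control replicates 1 and 2 and 20.7 times in EGF replicate 1. At chr17:50509641-50510144 the controls had 32.9 and 35.2 times and EGF replicate 1 had 26.4 times. In both, EGF replicate 1 lay further below the lower control than the controls lay apart. At chr7:133780110-133780649 the controls had 27.0 and 25.5 times and EGF replicate 1 had 21.7 times, again further below than the controls lay apart. At chr16:96076610-96077222 the values were 32.9, 30.0 and 28.3 times, and at chr6:145331018-145331668 they were 27.9, 31.7 and 27.3 times. These last differences were smaller than the gap between the control libraries.

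Other members stayed within or near the range of the controls over the genome mean. At chr9:70736882-70737411 the summit had 31.2 and 36.1 times in the controls and 35.8 times in EGF replicate 1, the highest EGF value of any member. At chr1:138811911-138812499 the values were 27.9, 30.0 and 29.2 times. At both, the EGF value lay between the controls by the genome mean and below both by local input. At chr8:73046917-73047659 the controls had 27.0 and 28.2 times and EGF replicate 1 had 29.2 times, above both by the genome mean and below both by local input. The values at chr16:48890629-48891311 were 18.6, 25.5 and 21.7 times. The member at chr7:87933913-87934475 was called by EGF replicate 2 alone, with 25.1 times against 23.6 and 30.8 times in control replicates 1 and 2. At these last 2 the EGF value lay between the controls by both scalings.

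In 4 of the remaining 5 called members, EGF replicate 1 had 19.8 to 20.7 times the genome mean, against 18.6 to 27.3 times in the control libraries. Over local input all 4 lay above both controls, at 1.26 to 2.73 times the control mean. In 1 of these 4 the EGF summit lay 213 bp from that of control replicate 2, so the heights there are of different positions. At the fifth, chr3:122323245-122323782, named after its values were seen, the EGF peak did not mark the control summit. It lay at chr3:122323628-122323833, reaching beyond the end of the member, with its summit 441 bp from that of control replicate 2. The reads at these separate summits were 11.8 and 12.3 times the genome mean in control replicates 1 and 2 and 20.7 times in EGF replicate 1, and they do not measure the same position.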

How the data were processed

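ARID1A ChIP-seq was measured in 4 libraries, 2 control and 2 EGF. The submitters' processing notes name MACS2 (2.1.1.20160309.0), deepTools (3.0.2), Bowtie2 (2.3.4.2), SAMtools and the mm9 build, without options. For every library the authors deposited a peak list, with start, end and summit, a score, a fold (ratio), a −log10 p and a −log10 q per peak. The deposited score equals 10 times the −log10 q, rounded down, in 100% of peaks.

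Local input and whole ChIP reads at the summit were recovered from the deposited fold and −log10 p with 1 scaling factor per library and a Poisson tail. The largest residual in −log10 p was 3.47e-05, and 100% of peaks had 1 solution with a background in steps of 0.02 reads per 200 bp. This form is inferred from the values. The recovery was tested on simulated data.

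Overlaps needed 1 bp. Where a member met several peaks of control replicate 1, the widest gave the width and the highest-scoring gave the other values. Shares have exact Clopper-Pearson and medians order-statistic 95% intervals. The number of broad peaks was compared over libraries by an exact two-sided permutation test. Named regions were the 6 widest members, the 6 with the highest score in control replicate 1, the 12 called with EGF with the highest score in control replicate 2, the 4 highest without a call, and 3 on each side of 500 bp. The members, comparisons and alternatives were chosen with earlier results of these data known. Chromosomes 5, 10, 11 and 15 and the X chromosome were not analysed here. Python 3.11.15, numpy 2.4.6, scipy 1.17.1, pandas 2.3.3 and matplotlib 3.10.9 were used.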

Additional observations from a re-analysis of the deposited data

How the results depend on the processing

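The 5 results were recomputed under alternatives, giving 57 values, of which 42 stayed close to the reported value, 15 moved (the number of broad peaks by over 1.5 times, the others out of their interval), and 0 reversed. The difference in the number of broad peaks per library, EGF minus control, was −409. The difference was −355.5 with 1 bound on the −log10 p, 8.00, in all lists, which leaves listed widths and input depths as they were. It was −836 at 400 bp, −195 at 600 bp and −675 on all numbered autosomes, and from −556 to −262 without 1 library. With the replicate number as a block (paired by number) it was again −409 (exact permutation p = 0.5, which no 2 pairs can go below). Only the numbering links the libraries, and with 2 members called in all 4 the pairing could not be checked. The share of members called with EGF ran from 0.680% to 3.85% with a library left out, and the difference from narrow peaks from 0.611 to 3.03 percentage points. The low ends are those without EGF replicate 1, which leave only the 4 peaks of EGF replicate 2. Restricted to peaks that pass at the settings of EGF replicate 1, the share was 7.08%. The median width of members in control replicate 1 (421 bp) was 377 bp with a 400 bp threshold, 478 bp when 50% of both control peaks had to be shared, 468 bp at a −log10 q of at least 5 in all lists, and 513 bp with the control lists swapped, where it is the width in control replicate 2. The median fold (6.67) was 7.01, 7.66 and 7.78 under the last 3 of these and 7.19 where local input was at most 2 times the background. The cause of these shifts was not tested. Leaving out chromosome 16, the bound on local input, the settings of EGF replicate 1 and the distance between summits were alternatives chosen after seeing the data. Members with about 20 reads at the summit limit the precision of width, and a member absent from the EGF lists is not shown to lack ARID1A.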

Other observations

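Not every broad peak of the control lists was a member. Of the 556 peaks of 500 bp or wider in control replicate 2 on these chromosomes, 115 met no peak of control replicate 1. They were lower than the members in control replicate 2, with a median fold of 6.15 against 7.64, had a median width of 559 bp, and reached at most 870 bp. Members also had to meet a peak of control replicate 1, so their higher fold may follow from the rule. None of the 115 overlapped an EGF peak, which allows a share of up to 2.61%, taken as 3 divided by 115. An EGF peak overlapped 18 of all 556 broad peaks of control replicate 2 (3.24%) and 13 of its 4187 narrower peaks (0.310%). The count of 0 therefore does not set the 115 apart from the narrower peaks.

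Control replicate 1 had 262 broad peaks of its own. Of these, 139 overlapped a broad peak of control replicate 2 (53.1%), 116 met narrow peaks and 7 met none. Their median fold in control replicate 1 was 7.55, 6.79 and 5.71 in that order.

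All 30 peaks of EGF replicate 1 on these chromosomes overlapped a control peak. A member was met by 17 and a narrow shared peak by 12, and 1 met a peak of a single control list. Of the 4 peaks of EGF replicate 2, 3 met a member and 1 a narrow shared peak.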
